A study of Homo sapiens with 78 samples.

Results

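The zinc finger genes of chromosome 19 were taken as the protein-coding genes of that chromosome whose GENCODE symbols start with ZNF. The rule gave 249 genes of the 58388 genes to which transcripts were summed. Of these, 33 start in the band 19p12 beside the centromere, 163 in 19q13 on the long arm, 52 in 19p13 on the short arm and 1 elsewhere. Their estimated counts and TPM (a level per transcript length, scaled to the same total in every well) were summed per gene in wells of 2 human cell lines, the melanoma line A375 and the T cell leukemia line Jurkat.

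Single cells were sorted by FACS, A375 with an antibody against CD47 into PBS and Jurkat with an antibody against CD81 into lysis solution. Sort buffer and cell line therefore cannot be told apart. The labels do not say whether every well received a cell. Libraries came from a SMARTer stranded total RNA kit for picogram input (#634413) or from the SMART-Seq Stranded Kit (#634444), with both kits in a workflow that pools 8 samples, and the labels do not name the pools. Wells with at least 200000 estimated counts were used, 69 of 78, with 17 (#634413) and 16 (#634444) A375 wells and 18 Jurkat wells for each kit. The 9 wells left out were all A375, with totals from 909 to 156660 counts. Of the A375 wells used, 3 held less than 50% of their counts in protein-coding genes (4.84% and 10.5% with #634413 and 44.4% with #634444). Totals ranged from 231540 to 2567265 counts with a median of 854018, so that 1 count stood for between 0.39 and 4.32 CPM (counts scaled to the same total in every well). These totals include ribosomal DNA, which held between 5.98% and 53.4% of the counts of a well used. Markers of the adherent line outweighed T cell markers in 33 of 33 A375 wells and in 0 of 36 Jurkat wells. Of 10 T cell markers, CD3D, CD3E and CD2 had no count in A375, and the other 7 had counts in 1 to 15 of the 33 wells (PTPRC in 15). Of 10 adherent line markers, CAV1 had no count in Jurkat, though it was in only 16 of 33 A375 wells, and the other 9 had counts in 1 to 22 of the 36 Jurkat wells (CD63 in 22).

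Most of these genes encode proteins with an array of Cys2-His2 zinc fingers, each of which contacts a few bases of DNA, and many carry a KRAB domain at the start of the protein. The KRAB domain binds the corepressor TRIM28, which brings SETDB1 and HP1 proteins and so silences the bound DNA, often a transposable element. The genes arose by repeated duplication and lie in clusters, of which 19p12, with ZNF91 and its relatives, expanded in primates.

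Most pairs of promoters in 19p12 shared stretches of letters, and few pairs across the bands of 19q13 did, which is shown with 4 genes that were higher in A375. The windows are the 250 bases before the RefSeq gene start (GRCh38.p14), 5′ to 3′ on the gene's strand, with every CG in capitals. ZNF486 (chr19:20166964-20167213, plus strand) and ZNF91 (chr19:23395472-23395721, minus strand) are from 19p12, and ZNF234 (chr19:44141304-44141553, plus strand) and ZNF841 (chr19:52095766-52096015, minus strand) from 19q13.
ZNF486: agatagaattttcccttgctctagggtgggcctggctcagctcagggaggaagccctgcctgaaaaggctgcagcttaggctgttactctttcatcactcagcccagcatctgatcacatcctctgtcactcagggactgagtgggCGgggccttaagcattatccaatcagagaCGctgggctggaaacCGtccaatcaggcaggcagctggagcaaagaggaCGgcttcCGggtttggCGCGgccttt
ZNF91: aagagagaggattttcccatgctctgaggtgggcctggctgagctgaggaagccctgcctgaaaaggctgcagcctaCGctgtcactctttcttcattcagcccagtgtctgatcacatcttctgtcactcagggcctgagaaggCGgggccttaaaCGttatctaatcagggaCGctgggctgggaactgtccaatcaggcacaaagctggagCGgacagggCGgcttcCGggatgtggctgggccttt
ZNF234: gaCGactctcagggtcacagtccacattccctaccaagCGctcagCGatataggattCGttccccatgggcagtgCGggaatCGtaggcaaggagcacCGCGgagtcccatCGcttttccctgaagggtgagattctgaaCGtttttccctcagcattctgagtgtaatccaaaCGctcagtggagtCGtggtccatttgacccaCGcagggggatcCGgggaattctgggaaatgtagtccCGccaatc
ZNF841: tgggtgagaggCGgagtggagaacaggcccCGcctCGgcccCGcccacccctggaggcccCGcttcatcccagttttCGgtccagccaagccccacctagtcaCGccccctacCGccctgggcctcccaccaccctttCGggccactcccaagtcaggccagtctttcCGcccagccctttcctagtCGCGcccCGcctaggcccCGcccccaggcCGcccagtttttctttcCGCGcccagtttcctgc

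In a global alignment, the windows of ZNF486 and ZNF91 were identical at 214 of 254 columns (84.3%) and shared 30 words of 12 bases. These words are read from every position, so that neighbouring words overlap and a single longer match holds several of them. The windows of ZNF234 (19q13.31) and ZNF841 (19q13.41) were identical at 46.1% of columns and shared 0 such words. A further 19p12 gene, ZNF714, matched ZNF486 at 82.5% and ZNF91 at 83.1% of columns. Over the 27 promoters of 19p12, 312 of 351 pairs (88.9%) shared at least 10 of these words, with a median of 26. In 19q13, 96 of 10011 pairs among 142 promoters did (0.959%), and in 19p13 40 of 1035 pairs among 46 promoters (3.87%). Such sharing was present there too: 45 of the 142 promoters of 19q13 and 24 of the 46 of 19p13 had at least 1 partner with at least 10 shared words, beside 26 of the 27 of 19p12. These sets are unlike, since 19p12 is 1 band while 19q13 and 19p13 each join several. Sharing within single bands of 19q13 and 19p13 was not computed.

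The same windows differed in CG dinucleotides, which read alike on both strands. RefSeq windows were found for 218 of the 249 genes, and the median number of CG was 8 in 19p12 (range 3 to 13), 14 in 19p13 (4 to 26) and 18 in 19q13 (1 to 39). At least 10 CG were present in 29.6% of the windows of 19p12, 89.4% of those of 19p13 and 95.1% of those of 19q13, beside 52.2% of 35116 RefSeq promoter windows of the genome. Over the genes, Spearman's rho of the number of CG was -0.04 with the mean TPM (218 genes) and -0.11 with the log2 difference between the lines (144 genes), across genes that share wells.

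**Figure D1:**
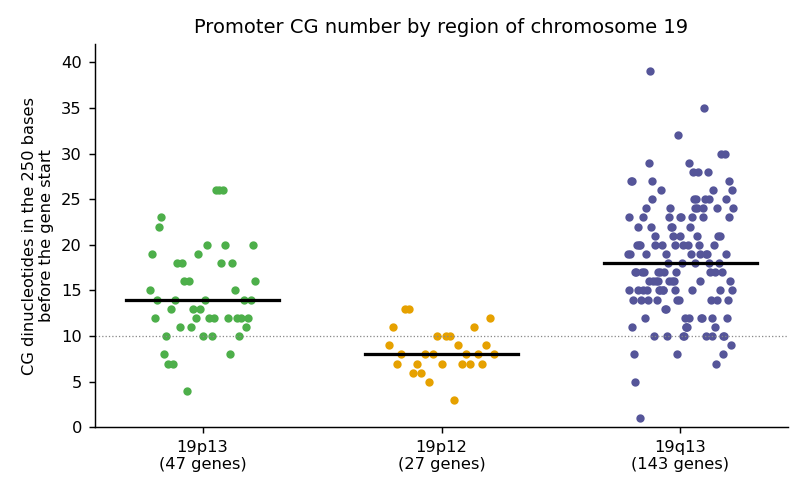
Number of CG dinucleotides in the 250 bases before the RefSeq start of each gene (y axis) by region of chromosome 19 (x axis); points are genes, bars medians and the dotted line 10 CG. Most 19p12 windows lie under the line (median 8) and most 19q13 windows above it (median 18).

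The coding sequences were repetitive as well, which limits how reads can be assigned. Counting a finger as 2 cysteines and 2 histidines at the spacing of the Cys2-His2 pattern, the longest reading frame of each gene held a median of 12 fingers, from 0 to 36 over 248 genes. Letters of the KRAB domain were found in 170 of the 249. A unit of 84 bases from the reading frame of ZNF492 (19p12, chr19:22634324-22667671, plus strand) is shown because it was found without a difference in ZNF98 (19p12, chr19:22391019-22532485, minus strand). The 15 capitals mark the linker that joins a finger to the preceding one, which was found with these letters in 98 of 248 reading frames.
ZNF492: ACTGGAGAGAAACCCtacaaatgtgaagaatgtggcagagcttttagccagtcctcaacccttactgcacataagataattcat

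A read from within this unit cannot be placed in either gene from its letters. Of all 31-base words of a gene's transcripts, a median of 89.7% belonged to no other gene. The share was under 50% for 12 genes, among them the 3 readthrough genes, and these are uncertain. No gene called in the comparison of the lines was under 50%, and the lowest was ZNF492 with 55.9%.

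At least 1 count was found for 248 of the 249 genes in the wells used, the exception being ZNF534. The summed level was 363 to 4579 CPM in A375 wells with #634413 (lowest to highest, median 3502) and 2756 to 5118 CPM with #634444 (median 4270). In Jurkat it was 1948 to 4350 CPM (median 3609) and 2332 to 5294 CPM (median 3642). The ranges overlapped in every pair of groups, and the 2 lowest wells, at 363 and 1163 CPM, were the A375 wells with 4.84% and 10.5% of counts in protein-coding genes. ZNF genes of other chromosomes had medians of 7153, 7219, 7058 and 7171 CPM in the same order of groups. As TPM, the medians of the chromosome 19 genes were 1587 and 1896 in A375 and 1268 and 1256 in Jurkat, with overlapping ranges as well.

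The number of different genes behind this level was counted at equal total counts. These totals include ribosomal DNA, so the depth over protein-coding genes still differed, most of all in the wells poor in protein-coding counts. With each well thinned to 200000 counts, A375 wells held 13 to 159 of the 249 genes with #634413 (median 96) and 97 to 170 with #634444 (median 136), and Jurkat wells 43 to 90 (median 63) and 75 to 126 (median 98). The #634444 wells of A375 lay above every #634413 well of Jurkat. Without the thinning, the medians were 120, 160, 82.5 and 117. For the 267 ZNF genes of other chromosomes, the thinned medians followed the same order, with 135, 163.5, 102.5 and 139.5, so the order is not particular to chromosome 19. The 10 highest genes of each well held a median of 34.8% and 29.5% of the counts on the 249 genes in A375, for #634413 and #634444 in turn, and 41.1% and 33.5% in Jurkat. For ZNF genes of other chromosomes these medians were 27.8%, 24.3%, 33.1% and 26.4%, in the same order. These per-well values were not tested.

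**Figure D2:**
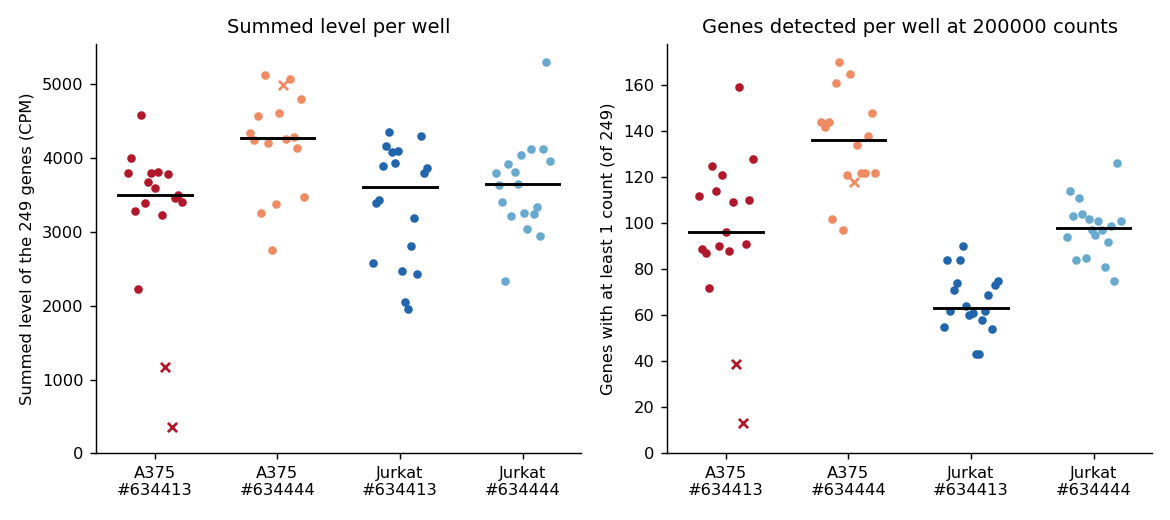
Summed CPM of the 249 genes (left) and number of them with at least 1 count after thinning to 200000 counts (right) in each of the 69 wells, by cell line and kit; bars are medians and crosses the 3 wells with under 50% protein-coding counts. The summed levels overlap, while detected genes have medians of 96, 136, 63 and 98.

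By region, the 33 genes of 19p12 gave a median of 518 and 700 CPM in A375 and 412 and 433 CPM in Jurkat, for #634413 and #634444 in turn. At 200000 counts, a median of 13 and 19 of them were detected in A375 and 8 and 10 in Jurkat. The 163 genes of 19q13 gave 2222 and 2583 CPM in A375 and 2234 and 2281 CPM in Jurkat, with 67, 88, 42.5 and 66.5 genes detected at 200000 counts. Of all counts on the 249 genes, those of 19p12 held a median share of 13.8% and 16.5% (A375) and of 12.2% and 13.5% (Jurkat), with ranges that overlapped.

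Gene by gene, 152 of the 249 were detected in at least 50% of the A375 wells and 102 in at least 50% of the Jurkat wells. A count in every well was found for ZNF146 in A375 and for ZNF121, ZNF146 and ZNF460 in Jurkat, and for 10 genes in A375 without the 3 wells poor in protein-coding counts. Of the 17 genes with no count in Jurkat, 16 were seen in A375, and ZNF541 was the reverse case with 2 counts in 1 Jurkat well. Detection in at least 50% of the wells of a line and at most 5% of the other was found for 7 genes in A375 (ZNF358, ZNF69, ZNF155, ZNF112, ZNF229, ZNF432 and ZNF841) and 0 in Jurkat. Among 17131 protein-coding genes with a count, 2.83% met this rule for A375 and 0.63% for Jurkat, so 7 and 0 of 249 genes is read against these shares and is no result about the chromosome 19 genes. ZNF69 (187.68 counts over the 33 A375 wells) and ZNF155 (204.2 counts) had no count in 36 Jurkat wells, which gave at least 62.5-fold and 68-fold higher values in A375 against 3 counts over all Jurkat wells. Both were below the count needed for the test of the lines.

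**Figure D3:**
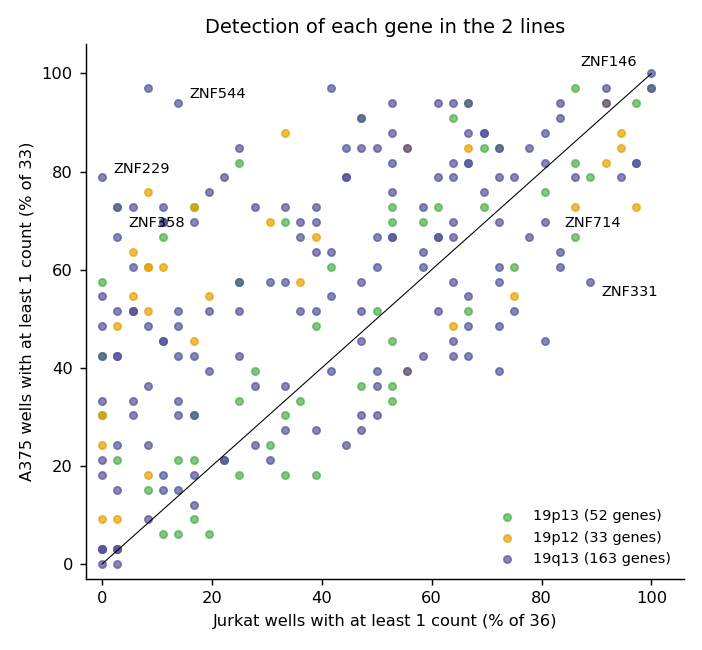
Percent of the 33 A375 wells (y axis) and of the 36 Jurkat wells (x axis) with at least 1 count of each gene, coloured by region; the line marks equal percentages. More points lie above the line than below it, and the genes at the left edge, such as ZNF229, had no count in Jurkat.

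Per transcript length, the highest genes were ZNF146, ZNF460 and ZNF121. ZNF146, a protein made of fingers without a KRAB domain, had 47.5 ± 30.9 (SD, n = 17) and 38.9 ± 25.2 TPM (n = 16) in A375 and 41.1 ± 40.4 and 44.7 ± 27.5 TPM (n = 18 each) in Jurkat. Its wells lay between 4.32 and 321 CPM (A375) and between 12.1 and 398 CPM (Jurkat), the lines overlapped throughout, and the log2 difference of -0.27 (SE 0.23, adjusted p = 0.377) did not pass the test. ZNF460 averaged 37.9 TPM over the groups and ZNF121, a partner of MYC, 34.6 TPM. They were followed by ZNF428 (26.3), ZNF91 (24), ZNF714 (23.4), ZNF875 (23.1), ZNF544 (23), ZNF573 (21.1) and ZNF580 (20.6 TPM). Neighbours in this order differed by less than the SD between wells. ZNF121 (log2 difference 0.55, SE 0.25, adjusted p = 0.0737), ZNF875 (0.01, SE 0.51) and ZNF580 (-0.09, SE 0.54) did not pass the test between the lines either.

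To ask which genes differ between the lines, A375 wells were compared with Jurkat wells over both kits with the quasi-likelihood test of edgeR across 12138 genes, those that reached 5 counts in 25% or more of the wells. Of the 249 genes, 158 were tested and 55 passed an adjusted p of 0.05, 37 higher and 18 lower in A375, which is 34.8% of those tested beside 41.4% of all genes (24.4% higher and 17% lower). A gene seen in a single line passes the filter through that line, so these counts describe the genes tested and not all 249. The median log2 difference was 0.16, beside 0.13 over all genes, and under library size alone and DESeq2 it moved to 0.02 and -0.03 together with that of all genes (-0.00 and -0.06). ZNF genes of other chromosomes had 51 of 190 called (27 higher and 24 lower), and the other protein-coding genes of chromosome 19 had 223 of 578 (101 and 122). Within both kits apart, 17 were called higher and 0 lower, beside 12.9% and 7.8% of all genes. Within #634413, 32 of the genes were called (23 higher and 9 lower, beside 29.8% of all genes, with 18.2% higher and 11.5% lower), and within #634444, 26 were (26 higher and 0 lower, beside 25.7%, with 15.9% higher and 9.75% lower). With DESeq2, which changes both the tool and the scaling, the split was 24 and 19 within #634413 and 25 and 5 within #634444, and with library size alone it was 21 and 13 and 23 and 0. No gene had all wells of a line apart from all wells of the other (0.0741% of all genes did with A375 higher and 0.371% with Jurkat higher). The A375 wells include 2 poor in protein-coding counts, with 16 and 44 of the 249 genes detected, which limits such a separation for genes higher in A375.

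**Figure D4:**
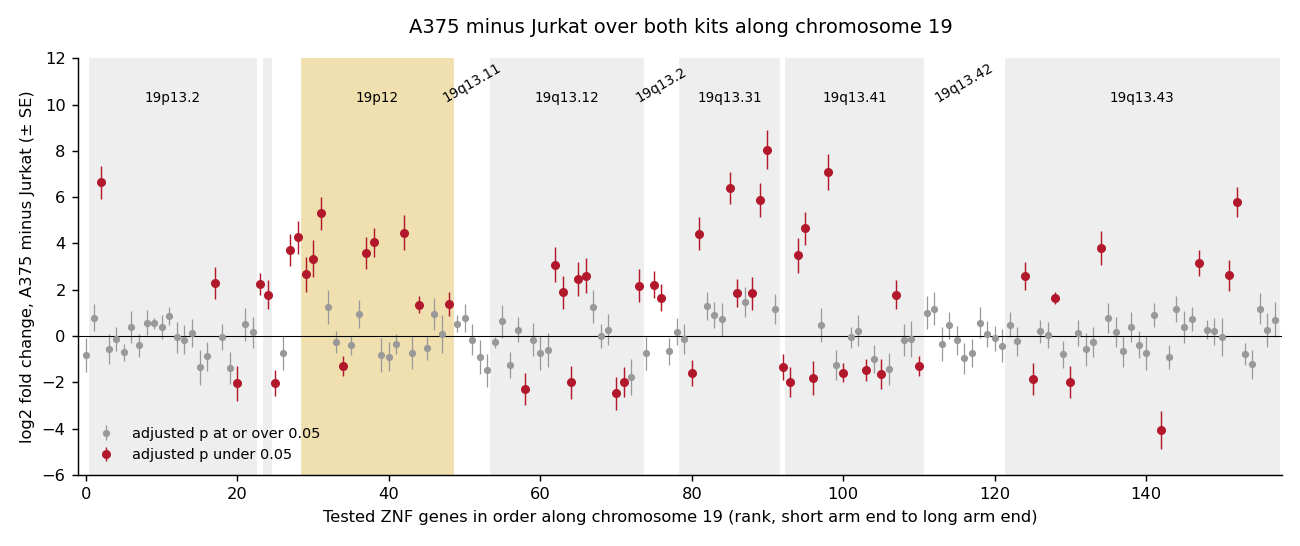
log2 fold change of A375 minus Jurkat over both kits (points, with SE) of the tested ZNF genes other than readthrough genes, in their order along chromosome 19; red points passed an adjusted p of 0.05 and yellow shading marks 19p12, with grey on alternate bands. Of the called genes, 8 of 9 in 19p12 and 6 of 7 in 19q13.31 lie above 0, among neighbours on both sides of 0.

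Over 19q13, 38 of 109 tested genes were called (34.9%, 23 higher and 15 lower), with a median log2 difference of 0.16. By band, 0 of 5 were called in 19q13.11, 9 of 20 in 19q13.12, 2 of 5 in 19q13.2, 1 of 1 in 19q13.33, 0 of 11 in 19q13.42 and 9 of 36 in 19q13.43. The bands described here, 19q13.31 and 19q13.41, had the highest shares called among those with more than 1 tested gene. In 19q13.31, 13 of 23 genes were tested, 6 rose in A375, 1 (ZNF428) fell, and the median log2 difference was 1.48, beside 0.13 over all genes. The 7 called are 53.8% of the 13, where 41.4% of all genes were called. ZNF229 (chr19:44417519-44448578) ranged from 0 to 233 CPM in A375 with #634413 (median 11.2) and from 0 to 70.2 CPM with #634444 (median 5.86), and it had no count in 36 Jurkat wells. It was present in 26 of 33 A375 wells and at least 239-fold higher over the A375 wells against 3 counts over all Jurkat wells (adjusted p = 6.81e-13). Its highest well was the A375 well with 10.5% of counts in protein-coding genes, and it passed the test without that well (adjusted p = 7.82e-12). ZNF234 (chr19:44141554-44160313), whose promoter is shown above, had a median of 21.6 CPM (range 0 to 100) and 27.9 CPM (5.49 to 154) in A375, with a count in 32 of 33 wells. In Jurkat it had counts in 3 wells of #634413, at most 20.3 CPM, and none with #634444, and the log2 difference was 6.41 (SE 0.70, adjusted p = 5.72e-13). With a group at 0, this size depends on the prior count that the fit adds. Within #634444, ZNF234 was at least 166-fold higher in A375 against 3 counts over the Jurkat group. The lines overlapped at the low end, since 1 A375 well had no count, while the A375 medians lay above every Jurkat well.

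ZNF112 was found in 24 of 33 A375 wells (up to 40.7 CPM) and 1 Jurkat well (3.40 CPM), a log2 difference of 5.88 (SE 0.72, adjusted p = 3.57e-11). It had no Jurkat count with #634444, so this size depends on the prior count too, and the bound within that kit was 74.1-fold. ZNF283 was found in 25 A375 wells, up to 69.2 CPM, and 7 Jurkat wells, up to 9.66 CPM (log2 difference 4.43, SE 0.70, adjusted p = 7.07e-08). ZNF226 (log2 difference 1.87, adjusted p = 0.00905) and ZNF235 (1.85, adjusted p = 0.0313) were called higher as well. The call of ZNF235 was lost without its highest well (adjusted p = 0.153). Some genes of the same cluster did not pass. ZNF224, a repressor of the aldolase A gene, had log2 difference 0.91 (SE 0.54, adjusted p = 0.181) with wells overlapping from 0 to 98.7 CPM in Jurkat and 0 to 126 CPM in A375. ZNF428, which held a single finger match, went the other way, with a median of 5.11 CPM in A375 and 34.3 CPM in Jurkat (log2 difference -1.59, SE 0.57, adjusted p = 0.0174).

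In 19p12, 20 of 33 genes were tested, 8 rose and 1 fell in A375, and the median log2 difference was 0.95. The kits differed in this. With #634413 the median was 0.25, 10 of the 20 were positive and 4 were called (20%, beside 29.8% of all genes). With #634444 the median was 1.13, 14 were positive and 7 were called (35%, beside 25.7%). Over both kits, the 9 called are 45% of the 20, near the 41.4% of all genes, and 12 of the 20 were positive. Under library size alone and DESeq2 it was 0.86 and 0.77, but with all 78 wells, where 16 were tested and 4 called, it was -0.37 beside -0.18 for all genes. ZNF91 (chr19:23304991-23395471), with 31 fingers and known for repressing SVA retrotransposons, had medians of 103 (range 0 to 248) and 137 CPM (62.3 to 292) in A375 and 35.5 (0 to 142) and 43.4 CPM (0 to 162) in Jurkat. Its wells overlapped, and the log2 difference was 1.36 (SE 0.36, adjusted p = 0.000999). ZNF486 (chr19:20167214-20200488) had a count in 25 of 33 A375 wells, up to 137 CPM, and in 3 of 36 Jurkat wells, up to 18.4 CPM (log2 difference 5.30, SE 0.71, adjusted p = 3.40e-10). ZNF493 was found in 29 A375 wells with a median of 31.7 CPM and in 12 Jurkat wells with a median of 0 (log2 difference 4.04, SE 0.63, adjusted p = 3.81e-08). ZNF492 had 4.47 (SE 0.75, adjusted p = 2.95e-07), with the reservation on its shared letters above.

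ZNF714 was the 19p12 gene that fell, although its promoter window is 82.5% identical with that of ZNF486. It had medians of 7.04 (range 0 to 109) and 31.6 CPM (0 to 102) in A375 and 44.6 (0 to 313) and 80.6 CPM (16.3 to 174) in Jurkat, with overlapping wells (log2 difference -1.30, SE 0.44, adjusted p = 0.0125). ZNF93, which represses LINE-1 elements, was too low for the test: it had counts in 20 of 33 A375 wells, up to 67.1 CPM, and in 4 of 36 Jurkat wells, up to 4.98 CPM. ZNF253, first found in bone marrow and lying just outside the band in 19p13.11, was in 24 A375 wells and 6 Jurkat wells (log2 difference 4.27, SE 0.71, adjusted p = 2.53e-07).

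In 19q13.41, 18 of 30 genes were tested, with 4 higher and 6 lower in A375 and a median of -0.59. The calls were 55.6% of the 18, beside 41.4% of all genes. The kits gave different splits. With #634413, 2 were higher and 4 lower (median -0.996), and with #634444, 3 were higher and 0 lower (median -0.14). Over both kits, 4 were higher and 4 lower without the wells poor in protein-coding counts. The split was 4 and 7 under library size alone, 4 and 6 under DESeq2, 4 and 5 as log2(TPM + 1) and 2 and 7 with all 78 wells. ZNF841 (chr19:52064465-52095765) was present in 7 of 17 A375 wells with #634413 (highest 109 CPM, median 0) and 15 of 16 with #634444 (highest 114 CPM, median 31.5). Jurkat had 1 count in 1 of 36 wells, so the ratio of the pooled levels was 656 with a counting interval from 118 to 25925. The fitted log2 difference was 7.09 (SE 0.77, adjusted p = 4.25e-13). ZNF432 on the same strand starts 27 bases away and overlaps it by 31274 bases. It was in 17 A375 wells, up to 103 CPM, and 1 Jurkat well, too low for the test, and 94% of its 31-base words are its own. ZNF649, which represses MAP kinase signalling, was in 24 A375 and 4 Jurkat wells (log2 difference 4.66, SE 0.70, adjusted p = 1.64e-08). It overlaps ZNF577 on the same strand by 1716 bases, and both are uncertain to that extent.

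The lower genes of the band were present in both lines. ZNF766 had medians of 13.5 (range 0 to 39.9) and 33.3 CPM (0 to 110) in A375 and 79.3 (0 to 202) and 67.1 CPM (22.3 to 280) in Jurkat (log2 difference -1.58, SE 0.41, adjusted p = 0.000858). ZNF160, known to repress TLR4 with TRIM28, had medians of 15.6 and 35.4 CPM in A375 and 51.7 and 78.2 CPM in Jurkat, with highest wells of 128 and 350 CPM (log2 difference -1.30, SE 0.42, adjusted p = 0.008). ZNF83 had medians of 12 CPM in A375 and 46.8 CPM in Jurkat (log2 difference -1.48, SE 0.47, adjusted p = 0.00686), and ZNF175, a gene induced by HIV in macrophages, 0 and 10.6 CPM (-1.99, SE 0.66, adjusted p = 0.00978). The wells of A375 and Jurkat overlapped for each of these genes. ZNF808, which is required for pancreas development, and ZNF611, which binds SVA elements, did not pass, with log2 differences of 0.23 (SE 0.66) and -0.99 (SE 0.62). ZNF350, a partner of BRCA1, was too low for the test, with 17 A375 wells and 2 Jurkat wells.

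**Figure D5:**
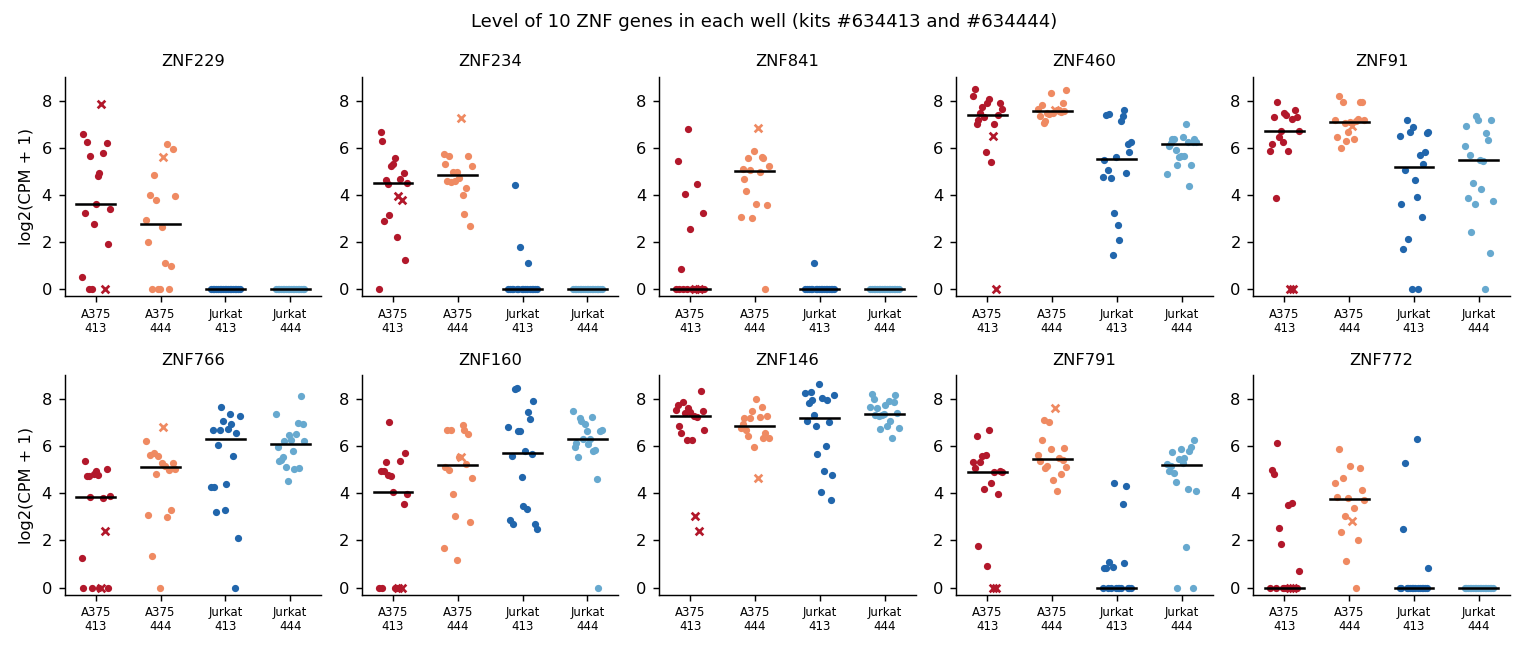
log2(CPM + 1) of 10 ZNF genes in each well by cell line and kit; bars are medians and crosses the 3 wells with under 50% protein-coding counts. ZNF229 has no Jurkat count, ZNF766 and ZNF160 overlap between lines with higher Jurkat medians, ZNF146 overlaps throughout, and ZNF772 has counts in only 4 Jurkat wells, all of #634413.

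Outside these bands, ZNF358 of 19p13.2 (chr19:7515292-7521025) was in 24 of 33 A375 wells, up to 46.1 CPM, and had 1 count in 36 Jurkat wells, a pooled ratio of 555 with a counting interval from 99.6 to 21910. Its fitted log2 difference was 6.64 (SE 0.71, adjusted p = 2.36e-13). ZNF544 of 19q13.43 was in 31 A375 wells, up to 89.7 CPM, and 5 Jurkat wells, up to 9.04 CPM (log2 difference 5.79, SE 0.65, adjusted p = 4.66e-13). ZNF460 of the same band was in nearly every well, with medians of 165 (range 0 to 359) and 190 CPM (134 to 350) in A375 and 45.6 (1.70 to 194) and 70.3 CPM (19.6 to 127) in Jurkat. With #634444 its A375 wells all lay above the Jurkat wells (lowest 134 against highest 127 CPM), with #634413 they overlapped, and the log2 difference over both was 1.64 (SE 0.27, adjusted p = 1.13e-07). ZNF274, which binds the ends of other ZNF genes and recruits SETDB1 to them, was in 28 A375 and 9 Jurkat wells (log2 difference 2.62, SE 0.68, adjusted p = 0.00087). ZNF573 rose by 2.17 (SE 0.71, adjusted p = 0.00913), and by 3.08 (adjusted p = 0.000186) without well 15 of Jurkat #634413, its highest. Since that well belongs to the lower line, leaving it out could not weaken the rise.

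ZNF671 of 19q13.43, often methylated in tumours, was lower in A375 by the fit but rested on few wells. It had counts in 10 A375 wells, up to 21.9 CPM, and in 17 Jurkat wells, up to 381 CPM, and the median was 0 in both lines (log2 difference -4.06, SE 0.81, adjusted p = 1.30e-05). Without the well of 381 CPM it was -3.34 (adjusted p = 0.00019). In 19q13.12, ZNF569, a repressor of MAP kinase signalling, and ZNF570 lie head to head with an overlap of 1691 bases on opposite strands, and both fell, by 2.48 (SE 0.72, adjusted p = 0.00301) and 1.99 (SE 0.65, adjusted p = 0.0086) on the log2 scale. ZNF382, a tumour suppressor of the AP-1 and NF-kB pathways, fell by 2.31 (SE 0.69, adjusted p = 0.00387), with 16 of 33 A375 and 26 of 36 Jurkat wells. ZNF101 of 19p13.11 fell by 2.02 (SE 0.57, adjusted p = 0.00217), and ZNF304 fell by 1.995 (SE 0.68, adjusted p = 0.0124). ZNF331, an imprinted gene, did not pass (-0.74, SE 0.59, adjusted p = 0.331).

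For 8 of the 55 genes the call was lost without the single well in which the gene was highest. Among the named genes, these were ZNF235, as given above, ZNF420, a regulator of p53 (-2.01, SE 0.72, adjusted p = 0.0173, and -1.67, adjusted p = 0.051, without well 2 of Jurkat #634413), and ZNF473, a factor of histone pre-mRNA processing (-1.36, SE 0.56, adjusted p = 0.0427, and -1.27, adjusted p = 0.0643, without well 3 of Jurkat #634444). The other 47 were called without their highest well. For some of these that are higher in A375, ZNF573, ZNF577 and ZNF772 among the named genes, that well was a Jurkat well. Leaving it out could not weaken their difference, so their calls were not checked in this way.

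Genes with KRAB letters had 44 of 111 tested called (31 higher and 13 lower), and those without had 11 of 47 (6 and 5), which is 39.6% and 23.4% beside 41.4% of all genes, and the difference between these subsets was not tested. Between adjacent tested genes of a band, 80 of 144 pairs (55.6%) had log2 differences of the same sign, and Pearson's r over pairs was 0.20, as a description of genes that share wells. Of the genes, 54.4% were positive, which is not the rate at which unrelated pairs would share a sign, and that rate was not computed. Neither finger number (Spearman's rho -0.02) nor the share of own 31-base words (-0.12) went with the log2 difference over 158 genes.

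The cofactors of KRAB zinc finger proteins were taken as a list of 26 genes, all tested, of which 4 rose and 10 fell in A375, with a median log2 difference of -0.58. Over all genes, 41.4% were called, 24.4% higher and 17% lower. TRIM28 itself had a median of 161 CPM in A375 (range 0 to 403) and 258 CPM in Jurkat (79.99 to 774), with overlapping wells, and fell by 0.65 (SE 0.20, adjusted p = 0.00544). The histone methyltransferase SETDB1 had a log2 difference of 0.63 (SE 0.36, adjusted p = 0.157). The nucleosome remodelling subunits CHD3, RBBP4, HDAC1 and MTA2 fell by 1.71 (SE 0.18), 1.83 (SE 0.19), 1.83 (SE 0.26) and 1.27 (SE 0.22), and the HP1 proteins CBX5 and CBX1 by 1.35 (SE 0.21) and 1.77 (SE 0.28), with adjusted p between 2.54e-14 and 7.20e-07. CHD4 and RBBP7, of the same remodelling complex, had log2 differences of 0.25 (SE 0.18, adjusted p = 0.263) and -0.63 (SE 0.30, adjusted p = 0.0819) and did not pass. The genes that rose were ATF7IP, a partner of SETDB1 (1.56, SE 0.38), MORC2 (1.39, SE 0.52), TRIM24 (1.19, SE 0.49) and ATRX (0.76, SE 0.25).

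To ask whether the kits differ, #634444 wells were compared with #634413 wells within each line. In A375, 0 of the 158 tested genes were called by edgeR and 0 by DESeq2, beside 0.0989% of all genes called by edgeR (0.0577% higher and 0.0412% lower). An unadjusted p under 0.05 in edgeR was found for 8 of the 158, beside 386 of all 12138 genes. In Jurkat, 8 were called (5 higher and 3 lower with #634444), beside 2.92% of all genes (2.34% higher and 0.577% lower), while DESeq2 called 4 (3 higher and 1 lower), log2(TPM + 1) 1 and thinned wells 2. Of the 8, only ZNF791 and ZNF772 were still called without the Jurkat well in which they were highest. ZNF791 (19p13.13) was in 8 of 18 wells with #634413 (median 0, highest 20.5 CPM) and 16 of 18 with #634444 (median 35.7, highest 74.8 CPM), a log2 difference of 3.46 (SE 0.70, adjusted p = 0.00104) and 3.36 without the highest well (adjusted p = 0.00151). In A375 its medians were 29.3 and 42.7 CPM. ZNF490 overlaps it by 22923 bases on the opposite strand, and only 45% of the 31-base words of ZNF490 are its own.

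ZNF772 (19q13.43) had counts in 4 of 18 Jurkat wells with #634413, up to 77.1 CPM, and none in 18 with #634444, and the level was at least 32.1-fold lower with #634444 against 3 counts over that group (adjusted p = 0.00152). Without well 2 of #634413, which held most of its counts, the bound was 13.7-fold (adjusted p = 0.00603). The other 6 calls were lost without the highest well. ZNF577 had 91.7 CPM in well 4 of #634413 and at most 4.06 CPM in any other Jurkat well, and its log2 difference of -3.95 (SE 1.10, adjusted p = 0.0215) turned to 1.39 without that well (adjusted p = 0.413). ZNF492 had 55.9 CPM in well 9 of #634444 and at most 1.45 CPM elsewhere in Jurkat, and 3.87 (SE 1.003, adjusted p = 0.0112) turned to -0.55 (adjusted p = 0.979). ZNF234 went from -3.36 (SE 0.86, adjusted p = 0.0103) to -1.28 (adjusted p = 0.538) without well 17 of #634413, and ZNF253, ZNF486 and ZNF765 had adjusted p of 1, 0.689 and 0.106 without theirs. The difference between the lines itself differed between kits (interaction term) for ZNF772 and ZNF234, beside 1.13% of all genes (0.28% higher and 0.849% lower). DESeq2, log2(TPM + 1) and thinned wells called neither, and ZNF234 was lost without well 10 of A375 #634444 (adjusted p = 0.0722).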

How the data were processed

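Single-cell total RNA libraries of A375 and Jurkat wells were quantified by the authors with kallisto (version 0.43.1, per the submitters' processing notes) in its stranded mode against Ensembl v91 transcripts extended with spike sequences. The authors deposited, for each well, estimated counts per transcript, which are not normalized. The deposited TPM values were computed by kallisto from the same counts and the effective transcript lengths. Reads carry no molecular identifiers, so copies made by PCR are counted and intervals cover counting error only. Kallisto shares reads between transcripts with common letters, which can move counts between these genes.

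Of 200206 Ensembl transcripts, 195850 were found in GENCODE v44 (GRCh38) and summed to genes, and the 4356 others and 17 counts on spikes in all wells stayed out of the genes. Counts on 1 ribosomal DNA target and on the unmatched transcripts remained in the well totals. No column lacked a sample (0). Groups come from the labels of cell line and kit. Bands were set from the UCSC limits and the gene start. The 249 members, the cofactor list, the markers and the tests were chosen with earlier results of these data known. Wells were sorted as single cells of cultures, so p-values measure the spread between wells only. Library pools are not named and cannot be told apart from the groups. 0 of 3003 pairs of wells were identical.

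Gene counts were rounded and fitted with edgeR 4.0.16 (TMM, robust glmQLFit and glmQLFTest, two-sided, R 4.3.3) in 1 model of 4 groups limited to genes that reached 5 counts in 25% or more of the wells, with Benjamini-Hochberg adjustment over 12138 genes. The SE was computed from the F statistic. In data simulated for the comparison of the lines with 12138 genes, edgeR recovered 20 of 100 genes changed by 1 and 67 of 100 changed by 2 on the log2 scale, with 9 false calls among 96. For the same data, DESeq2 1.42.0 found 27 and 83 of them and made 21 false calls in 131. The changed genes were drawn only from those above the lowest 25% by mean CPM, so recovery of the lowest genes was not measured. Far fewer genes were changed than were called in the real data (41.4%). Alternatives were DESeq2, scaling by library size, every gene with 1 count in 3 wells, wells of at least 50% protein-coding counts, all 78 wells, log2(TPM + 1) with limma 3.58.1, and wells thinned to 200000 counts. Leaving out the well in which a called gene was highest was added after the values had been seen.

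Genes named are, between the lines, the 12 higher and the 12 lower ones with the lowest adjusted p, the 10 with the highest mean TPM, up to 5 called in each kit comparison and the interaction, and 14 with a known role. From the cofactors, the 6 with the smallest adjusted p, TRIM28 and SETDB1 are named. Genes named outside this rule (ZNF69, ZNF155, ZNF226, ZNF235, ZNF432, ZNF490, ZNF534, ZNF541, ZNF765, ZNF98, ATF7IP, MORC2, TRIM24, ATRX, CHD4 and RBBP7) were chosen after their values were seen. A fold against wells without a count was computed against 3 counts over the group. Where a group had no count, as for ZNF358 and ZNF841 in Jurkat #634444, the fitted log2 difference depends on the prior count of the fit. Promoter windows are from RefSeq (GRCh38.p14), and the comparison of their 12-base words was added after the values had been seen. Tables and plots were made with pandas 2.3.3, scipy 1.17.1, numpy 2.4.6 and matplotlib 3.10.9 under Python 3.11.15.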

Additional observations from a re-analysis of the deposited data

Results flagged for a closer look

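The difference between A375 and Jurkat differed between the kits for ZNF772, with an interaction of 6.36 on the log2 scale (SE 1.44, edgeR quasi-likelihood test, adjusted p = 0.0134). A375 minus Jurkat was 0.62 with #634413 and, with no Jurkat count in #634444, at least 89.2-fold against 3 counts over that group. Without the highest well, well 2 of Jurkat #634413, the interaction was 5.06 (adjusted p = 0.0287). For ZNF234 the interaction was 3.77 (SE 1.04, adjusted p = 0.0478), and 3.31 (adjusted p = 0.0722) without well 10 of A375 #634444, which held 44.4% of its counts in protein-coding genes. Both interactions are fitted against a group without a count and depend on the prior count of the fit.

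In the 9 wells left out for their depth, all A375, 107 of the 249 genes had at least 1 count. Most came from 1 well of #634413 with 84 genes, while 6 wells, with totals of 909 to 2373 counts, held at most 7 genes each.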

How the results depend on the processing

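No paired analysis was made, because each well is a separate library and a replicate number that recurs in several groups does not link their wells. In the comparison of the lines, 107 genes were called without the filter beyond 1 count in 3 wells and 26 in thinned wells, where fewer genes are tested, beside 49 to 69 under the other alternatives. With all 78 wells the 49 split into 25 higher and 24 lower. Within #634413 the counts were 81 (no filter), 49 (TPM) and 15 (thinned), and library size alone split 34 into 21 and 13. Within #634444 they were 64, 47 and 11. The kit comparison gave 9 (no filter) and 1 (TPM) in A375, and in Jurkat 31 (no filter), 4 (DESeq2), 4 (all 78 wells), 1 (TPM) and 2 (thinned). The interaction gave 21 (no filter), 1 (without wells poor in protein-coding counts) and 0 with DESeq2, TPM and thinned wells. The cause was not tested beyond the changed gene and well numbers.

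The ratio of the median summed level of A375 over Jurkat with #634444 moved from 1.17 as CPM to 1.51 as TPM. Genes detected per well had medians of 122 and 92 in A375 with #634444 at limits of 5 and 10 counts, 61.5, 52.5 and 63 in Jurkat with #634413 at 5 counts, 10 counts and thinned, and 89, 68.5 and 98 in Jurkat with #634444. In Jurkat, the kit differences of ZNF492 (-0.55) and ZNF577 (1.39) reversed without the highest well.

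Depth limits what a well without a count shows, since 3 counts stood for 1.17 to 12.96 CPM. The filter on low counts kept 91 of the 249 genes from the test, ZNF69 and ZNF155 among them, and without it more genes were called, as given above.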
